A study of Macaca mulatta with 136 samples.

Results

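The genes described here are 3 carbonic anhydrases, CA2, CA12 and CA14, and 4 symbols of the sodium pump, ATP1A4, ATP1B1, ATP1B2 and ATP1B3. They were taken by symbol from the 17721 symbols and 19422 gene identifiers of the deposited values, and all 7 symbols were found, on 8 identifiers. RNA was measured by RNA-seq in 2 mm punches of postmortem eyes of adult rhesus macaques, separated into neural retina and RPE/choroid, which is the retinal pigment epithelium with the vascular layer beneath it. The 4 locations punched were fovea (macula included), perimacula, nasal and periphery, and the study asked how expression differs from the fovea over the perimacula to the periphery and between the layers. The nasal libraries were outside its analysis and are used here as a further location. The 32 libraries form 8 groups of tissue and location with 4 eyes each, and the labels name no treatment or genetic change for any of them. Eyes 1 and 2 were the right and left eye of the animal RM03, and eyes 3 and 4 those of RM04, so the 4 eyes came from 2 animals and the p-values measure the spread between eyes, not between 4 animals. Values from single eyes are listed in this order.

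Carbonic anhydrases interconvert carbon dioxide and bicarbonate. CA2 is the abundant cytosolic enzyme, known in the eye from Mueller glia and the pigment epithelium, whereas CA12 and CA14 sit in the plasma membrane with the active site outside the cell. The sodium pump (Na,K-ATPase) moves sodium out of the cell and potassium in, and consists of an alpha subunit, which hydrolyses ATP, and a beta subunit, which the alpha subunit needs to reach the membrane. In photoreceptors the pump carries the sodium that enters in the dark back out, and in the pigment epithelium it lies in the apical membrane, facing the photoreceptors.

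The library totals ranged from 42448891 to 78574034 estimated counts, and levels are given as CPM, which are counts scaled to the same library total. Differences between groups are log2 fold changes ± SE of edgeR's quasi-likelihood fit with the monkey as a covariate, and a gene was called at a Benjamini-Hochberg adjusted p under 0.05 over all genes tested. The SE was derived from the test, as the absolute log2 fold change divided by the square root of the F statistic. The genes were chosen by a list proposed with the retinal comparison of fovea and periphery known, in which ATP1A4 and CA12 moved furthest, so the retinal comparisons that use fovea or periphery libraries, and the tissue difference at those 2 locations, are descriptions with no p. The remaining comparisons were tested. They rest on other contrasts, but those that include perimacular or nasal retina are not independent evidence of a retinal pattern, since its course was known for these genes. Periphery libraries ran on a separate flow cell, and the periphery and its flow cell cannot be told apart. The libraries are of bulk tissue, in which fewer cells of a type and less RNA per cell cannot be told apart.

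The tissues matched their labels by markers of the pigment epithelium and of rods. No marker of any list was at 0 in all 4 libraries of a group. The 5 measured markers of the pigment epithelium summed to between 2257 and 19248 CPM in RPE/choroid libraries and to between 125.8 and 1304 CPM in retina libraries. The 9 rod markers summed to between 4058 and 28096 CPM in retina and to between 47.17 and 959.2 CPM in RPE/choroid. The 6 Mueller glia markers did not separate the layers, at 1672 to 6335 CPM in retina and 1354 to 5027 CPM in RPE/choroid. A pair of RPE/choroid libraries stood low in markers of the pigment epithelium and high in the 5 Schwann cell markers: the periphery of eye 2, at 2257 CPM and 11546 CPM, and the perimacula of eye 1, at 3469 CPM and 6539 CPM. In the other RPE/choroid libraries the Schwann cell markers summed to 132.6 to 4123 CPM.

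Identifiers limit what some values mean. The identifier listed as ATP1A4, an alpha subunit best known from sperm, carries a different symbol in the reference table of gene names used here. Which gene was counted could not be settled, so it is called the ATP1A4 entry. ATP1B3 stands on 2 identifiers. ENSMMUG00000039621 carries all of its counts, and ENSMMUG00000007203 was at 0 in 32 of 32 libraries, where a limit of 3 counts allows up to 0.0382 to 0.0707 CPM.

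CA2 differed least between fovea and periphery of retina among the 3 carbonic anhydrases, and in RPE/choroid its levels separated by animal at each location. In the 4 foveal retinas it stood at 28.9, 30.01, 31.5 and 28.7 CPM, and in the perimacular retinas at 35.5, 36.6, 50.9 and 39.4 CPM. The foveal eyes lay below all perimacular and all nasal eyes. Nasal retina held 35.5 to 45.4 CPM and peripheral retina 31.3 to 55.5 CPM, ranges that overlapped each other and the perimacula. The fitted difference of fovea minus periphery was -0.47 ± 0.11, with the fovea lower in 4 of 4 eyes.

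In RPE/choroid, CA2 stood at 2.59, 2.57, 11.4 and 10.9 CPM at the fovea, at 5.13, 6.61, 21.02 and 15.7 CPM at the perimacula and at 1.39, 1.42, 5.98 and 8.38 CPM at the nasal location. Both eyes of RM04 exceeded both eyes of RM03 at 4 of 4 locations, and the mean over locations was 10.99 CPM in RM04 against 3.49 CPM in RM03, a ratio of 3.15. No pair of neighbouring locations separated in their order, which ran from nasal through periphery and fovea to perimacula. With 2 animals, the animal difference was not tested.

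CA12, a transmembrane enzyme found in many secretory epithelia, had opposite profiles in the layers, low at the fovea in retina and high there in RPE/choroid. In retina it stood at 1.43, 3.20, 2.95 and 2.28 CPM at the fovea and at 7.42, 12.8, 18.8 and 5.18 CPM at the perimacula. Nasal retina had 18.8, 21.3, 21.8 and 21.1 CPM, and peripheral retina 28.1, 45.0, 109.8 and 97.0 CPM. The fovea lay below all other locations and the periphery above them, while the perimacular and nasal ranges met, with a highest perimacular value of 18.85 CPM and a lowest nasal value of 18.76 CPM. Among peripheral retinas the eyes of RM04 had the higher values.

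The fitted difference of fovea minus periphery in retina was -4.64 ± 0.46, a 24.9-fold higher level in the periphery. Fovea minus perimacula was -2.11 ± 0.43 and fovea minus nasal -3.05 ± 0.41, each with the fovea lower in 4 of 4 eyes. The last 2 differences lie within shared flow cells. The summed markers of retinal cell types also differed between these locations. Across retina locations the 6 Mueller glia markers went from 1672 to 1780 CPM at the fovea to 4230 to 6335 CPM at the periphery, the rod markers from 4058 to 4840 CPM to 25123 to 28096 CPM, and the pigment epithelium markers from 143.5 to 237.2 CPM to 554.4 to 1304 CPM, while the 7 ganglion cell markers went from between 8141 and 9178 CPM to between 373.6 and 816.7 CPM. Their part in the differences of CA12 and of the other genes was not tested.

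In RPE/choroid, CA12 ran the other way. It stood at 130.4, 109, 135 and 163 CPM at the fovea and at 49.5, 78.8, 63.4 and 87.8 CPM at the perimacula. Nasal tissue had 50.2, 46.5, 43.5 and 34.8 CPM and peripheral tissue 23.6, 8.45, 22.4 and 25.5 CPM. All foveal values lay above all others, all peripheral values lay below all others, and the nasal and perimacular ranges overlapped by less than 1 CPM.

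**Figure D1:**
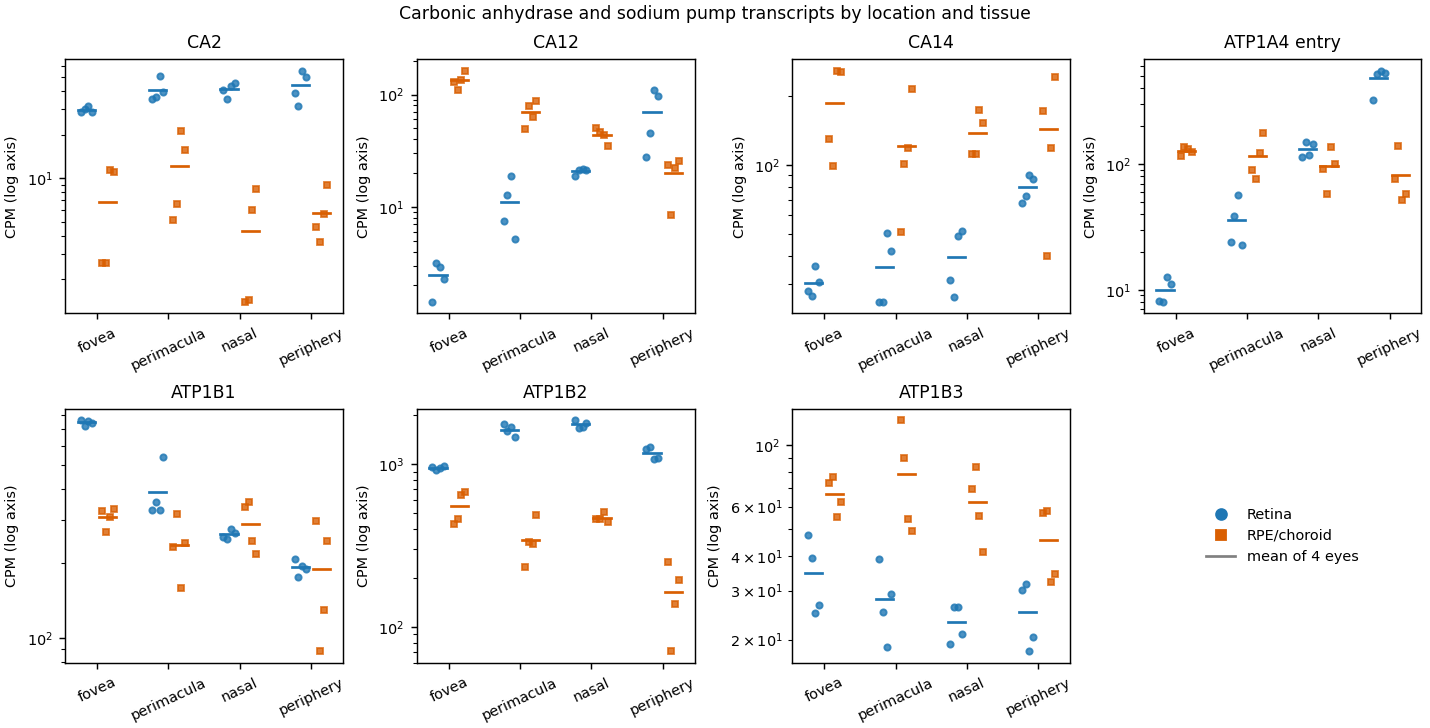
Level of each gene in CPM (log axis, scaled separately in each panel) at the 4 locations, with circles for retina, squares for RPE/choroid, 1 point per eye and a bar at the mean of 4 eyes. In retina, CA12 and the ATP1A4 entry stand at 2.46 and 9.96 CPM at the fovea and at 69.97 and 480.2 CPM at the periphery (means of 4 eyes), while ATP1B1 runs the other way, at 746 and 193 CPM.

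CA14, a transmembrane enzyme known from the membranes of the pigment epithelium and of Mueller glia, stood apart from the other retina locations at the periphery. It stood at 27.99, 26.7, 36.2 and 30.7 CPM in foveal retina, at 25.2, 25.2, 50.2 and 41.9 CPM in perimacular retina and at 31.3, 26.4, 48.7 and 51.1 CPM in nasal retina. These ranges overlapped. Peripheral retina had 67.8, 73.1, 90.4 and 86.9 CPM, above every other retina library. The fitted difference of fovea minus periphery was -1.33 ± 0.12, nasal minus periphery -1.04 ± 0.12 and fovea minus nasal -0.29 ± 0.12. The eyes of RM04 exceeded those of RM03 at 4 of 4 retina locations, with a mean of 54.51 CPM against 37.95 CPM.

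In RPE/choroid, CA14 varied more between eyes than between locations. Part of this lay between the animals. At 3 of 4 locations both eyes of RM04 exceeded both eyes of RM03, with a mean over locations of 191.5 CPM against 101.6 CPM. Foveal tissue had 129, 99.1, 258 and 255 CPM, perimacular tissue 50.9, 100.3, 118 and 215 CPM and nasal tissue 111, 111, 174 and 152 CPM. Peripheral tissue had 171, 40.1, 118 and 242 CPM, so that the lowest CA14 value and a value of 242 CPM came from the same location. All neighbouring locations overlapped. The lowest values belonged to the libraries with the fewest pigment epithelium markers, the periphery of eye 2 and the perimacula of eye 1.

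CA14 followed the summed pigment epithelium markers over the 16 RPE/choroid libraries, with a Pearson r of 0.95 between the log2 values, against 0.32 for CA12 and 0.27 for CA2. With the Mueller glia markers, which do not separate the layers, the r of CA14 was 0.922. These libraries share eyes, locations and flow cells, so the coefficients describe these libraries and carry no p. The CA14 profile was most like those of RGR (r = 0.979), DSP (0.973) and BEST1 (0.972), of which RGR and BEST1 are in the marker list. The genes most like CA12 there were LOC705178 (0.953), SULF1 (0.942) and TMEM132C (0.939).

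**Figure D2:**
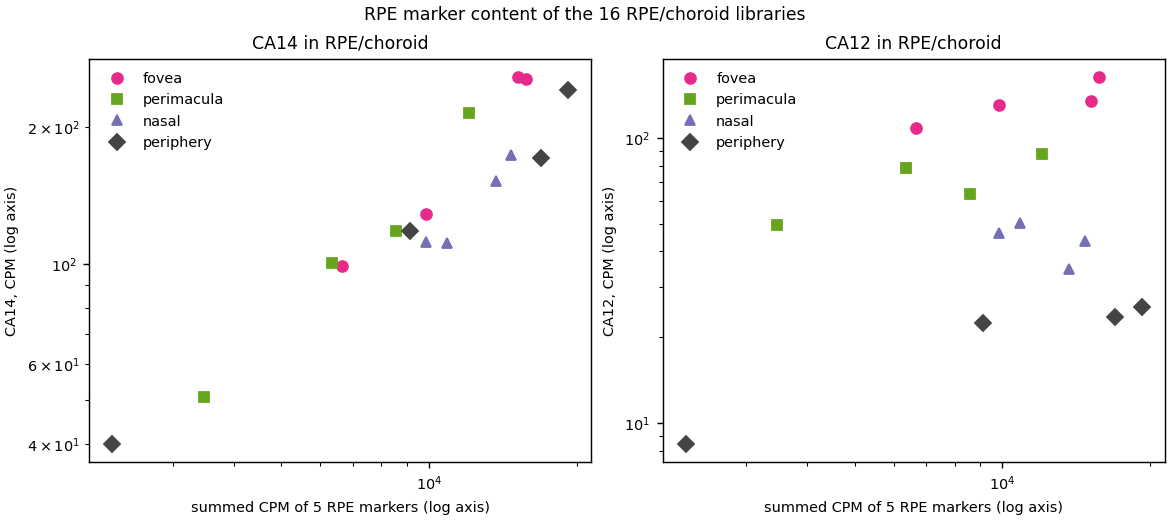
Level of CA14 (left) and CA12 (right) in CPM against the summed CPM of 5 pigment epithelium markers in the 16 RPE/choroid libraries, on log axes, with a symbol for each location. CA14 is higher where the markers are higher (r = 0.95), whereas CA12 separates by location, with the 4 foveal libraries between 109 and 163 CPM and the 4 peripheral libraries between 8.45 and 25.5 CPM.

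The ATP1A4 entry, the only alpha subunit among the genes chosen, differed between all 4 retina locations, in the order fovea, perimacula, nasal and periphery from low to high. It stood at 8.19, 8.02, 12.5 and 11.1 CPM at the fovea and at 23.9, 38.7, 57.1 and 22.9 CPM at the perimacula. Nasal retina had 115, 149, 119 and 144 CPM and peripheral retina 324, 516, 553 and 528 CPM. No range overlapped another, and each step between neighbouring means was a ratio of 3.58 to 3.69. The fitted difference of fovea minus periphery was -5.54 ± 0.28, a 46.7-fold higher level in the periphery, and fovea minus nasal, within shared flow cells, was -3.71 ± 0.26.

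Its pattern over the 16 retina libraries was most like those of VIM (Pearson r of the log2 values 0.991), an intermediate filament of Mueller glia and other cells, SMO (0.990) and SPP1 (0.989). With the 6 Mueller glia markers together r was 0.978, and with the 7 ganglion cell markers -0.981. It was also 0.963 with the 6 endothelium markers, 0.919 with the rod markers and 0.902 with the pigment epithelium markers. With the 9 cone markers it was -0.642. These values single out no cell type. In the retina the ATP1A4 entry and CA12 followed each other at r = 0.964.

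In RPE/choroid the ATP1A4 entry showed no separated step. It stood at 116, 136, 131 and 125 CPM at the fovea, at 89.0, 75.6, 123 and 177 CPM at the perimacula, at 90.6, 58.1, 138 and 100.1 CPM at the nasal location and at 75.9, 139, 51.6 and 57.4 CPM at the periphery. The means were 126.9 CPM at the fovea and 81.1 CPM at the periphery, with overlapping ranges throughout. The highest peripheral value came from eye 2, the library with the most Schwann cell markers.

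ATP1B1, the widely expressed beta subunit, was the mirror image of the ATP1A4 entry in retina. It stood at 762, 722, 758 and 744 CPM at the fovea and at 329, 356, 329 and 541 CPM at the perimacula. Nasal retina had 255, 252, 276 and 266 CPM and peripheral retina 209, 176, 196 and 191 CPM. No ranges overlapped, and the spread at the fovea, 746 ± 18.2 CPM (SD, n = 4), was a small part of the distance to the perimacula, 389 ± 102 CPM. The fitted difference of fovea minus periphery was 2.01 ± 0.15, a 4.03-fold higher level at the fovea, and fovea minus nasal was 1.54 ± 0.13.

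Over the 16 retina libraries ATP1B1 followed the ATP1A4 entry at r = -0.965 and the ganglion cell markers at r = 0.97. Its r was -0.973 with the rod markers, -0.939 with the endothelium markers, -0.933 with the Mueller glia markers and 0.787 with the cone markers. No cell type is singled out by these values. The genes most like it were SRPRB (0.995), RIMKLA (0.994) and CHRNB2 (0.994). The perimacular eye with the high ATP1B1 value, eye 4, also had the most ganglion cell markers of its location, 4910 CPM against 2341 to 3159 CPM in the other 3 eyes. The same eye had the fewest rod markers there, 10989 CPM, and the most cone markers, 3323 CPM.

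In RPE/choroid ATP1B1 stood at 327, 269, 309.9 and 331 CPM at the fovea, at 234, 316, 159.7 and 243 CPM at the perimacula, at 339.5, 355, 246 and 219 CPM at the nasal location and at 298, 88.1, 129.9 and 247 CPM at the periphery. The ranges of all neighbouring locations overlapped. Its pattern there was most like those of COL8A1 (r = 0.976) and IGSF9 (0.966).

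ATP1B2, a beta subunit that also serves in cell adhesion and is known from photoreceptors and glia, was highest at the nasal location and the perimacula in retina. It stood at 960.5, 923, 948 and 972 CPM in foveal retina, at 1761, 1597, 1685 and 1473 CPM in perimacular retina and at 1867, 1678, 1699.9 and 1799 CPM in nasal retina. Peripheral retina had 1239.7, 1276, 1081 and 1096 CPM. The order was fovea, periphery, perimacula and nasal, and only the last 2 overlapped. Fovea minus nasal was -0.86 ± 0.07, fovea minus perimacula -0.72 ± 0.08 and fovea minus periphery -0.24 ± 0.08. The most similar genes were VEZF1 (r = 0.971), NEUROD1 (0.968), a transcription factor of photoreceptors and amacrine cells, and TNRC6C (0.962).

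In RPE/choroid the mean of ATP1B2 was highest at the fovea, with 431, 459, 651 and 672 CPM in the eyes. The mean was lowest at the periphery, with 251, 70.6, 138 and 194 CPM. Perimacular tissue had 232, 334, 323 and 486 CPM and nasal tissue 461, 462, 509 and 444 CPM. Foveal and peripheral values did not overlap, and the lowest was again that of eye 2 at the periphery.

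ATP1B3, a beta subunit with a broad distribution, had overlapping ranges at neighbouring locations in both layers. In retina it stood at 47.6, 39.3, 24.99 and 26.6 CPM at the fovea, and at the other 3 locations it lay between 18.2 and 39.1 CPM. In retina, fovea minus periphery was 0.51 ± 0.18. In RPE/choroid the fovea had 72.8, 76.6, 55.0 and 62.3 CPM, the perimacula 123, 89.7, 54.0 and 48.9 CPM, the nasal location 69.2, 83.4, 55.4 and 41.2 CPM and the periphery 57.01, 57.7, 32.2 and 34.5 CPM. Both eyes of RM04 lay below both eyes of RM03 at 4 of 4 RPE/choroid locations, with a ratio of the means of 0.61.

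**Figure D3:**
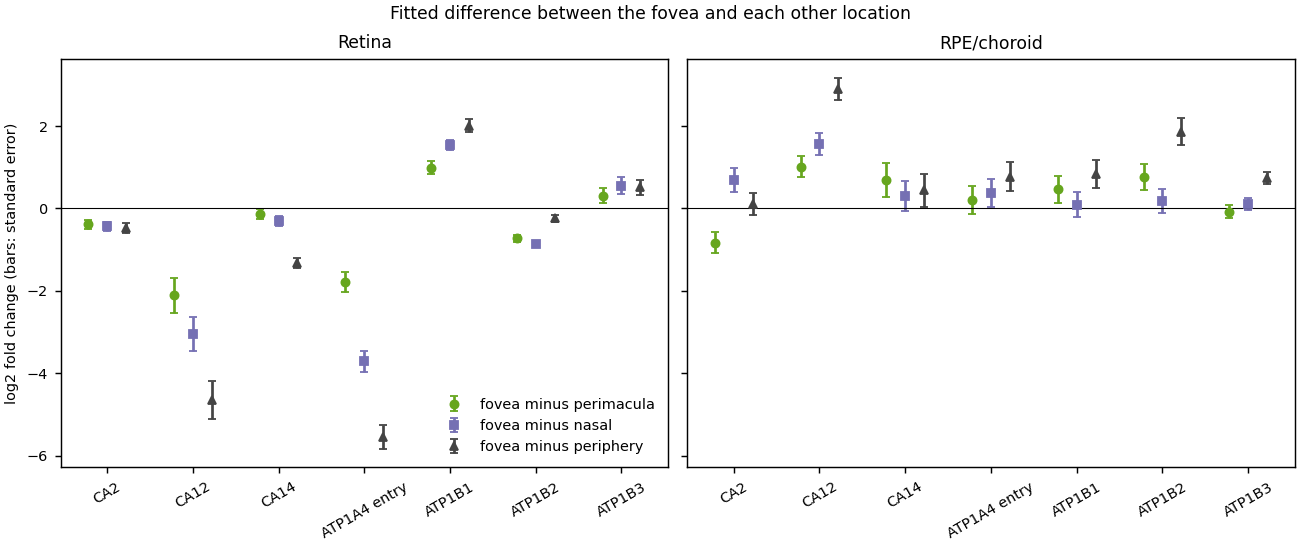
Fitted log2 fold change of the fovea against the perimacula (circles), the nasal location (squares) and the periphery (triangles) for each gene, in retina (left) and RPE/choroid (right), with bars for the SE. For CA12 the points lie below 0 in retina, down to -4.64, and above 0 in RPE/choroid, up to 2.90.

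Within the RPE/choroid, fovea and periphery were compared by the test, and 3 of 7 genes were called, against 44.1% of all 15674 genes tested. The 3 were higher at the fovea, a direction called in 21.2% of all genes, and the 7 genes had a median log2 fold change of 0.77 against -0.06 over all genes. With 7 genes, 3 calls lie near the share in all genes. CA12 was higher at the fovea by 2.90 ± 0.28, a 7.45-fold difference (edgeR quasi-likelihood, Benjamini-Hochberg adjusted p = 2.22e-05). ATP1B2 was higher by 1.86 ± 0.33 (edgeR, adjusted p = 0.00106) and ATP1B3 by 0.74 ± 0.16 (edgeR, adjusted p = 0.0032). Each of the 3 was higher at the fovea in 4 of 4 eyes. The call of ATP1B3 was lost without the monkey as covariate (edgeR, adjusted p = 0.113).

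The other 4 genes did not pass by edgeR, while DESeq2 also called ATP1B1 and the ATP1A4 entry. ATP1B1 had a difference of 0.84 ± 0.33 (edgeR, adjusted p = 0.062) and the ATP1A4 entry one of 0.77 ± 0.34 (edgeR, adjusted p = 0.0879). CA14 had 0.44 ± 0.40 and CA2 0.11 ± 0.27, with edgeR adjusted p-values of 0.405 and 0.774. ATP1B1 passed when the eye replaced the monkey as a block, at 0.93 ± 0.32 (edgeR, adjusted p = 0.0433), and with eye 1 left out, at 1.15 ± 0.38 (edgeR, adjusted p = 0.0454). The ATP1A4 entry passed when the peripheral library of eye 2 was left out, at 1.20 ± 0.26 (edgeR, adjusted p = 0.00409), an alternative chosen after its markers had been seen, and CA12, ATP1B2 and ATP1B3 were called there too.

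Markers of other cell types differed between the same groups. From fovea to periphery of RPE/choroid the 5 smooth muscle and pericyte markers went from between 4989 and 7968 CPM to between 603 and 1948 CPM. The 5 fibroblast markers went from between 1642 and 2813 CPM to between 3919 and 8286 CPM, and the Schwann cell markers from between 137.5 and 175.3 CPM to between 478.5 and 11546 CPM. The 6 endothelium markers went from between 1644 and 2377 CPM to between 1080 and 1494 CPM, and the 8 amacrine and horizontal cell markers from between 206.7 and 237.7 CPM to between 83.24 and 136.6 CPM. The pigment epithelium markers overlapped, at 6652 to 15778 CPM and 2257 to 19248 CPM. The ganglion cell markers went from between 270.2 and 349.7 CPM to between 130.9 and 194.4 CPM. Over the 16 libraries CA12 followed the amacrine and horizontal cell markers at r = 0.848, the endothelium markers at 0.80 and the smooth muscle markers at 0.743. ATP1B2 followed the same lists at 0.877, 0.851 and 0.637. With the ganglion cell and cone markers r was 0.788 and 0.565 for CA12 and 0.582 and 0.845 for ATP1B2. With the fibroblast and Schwann cell markers it was -0.714 and -0.625 for CA12 and -0.686 and -0.733 for ATP1B2. These are descriptions, and the part of any cell type in the differences was not tested. Whether the ganglion, cone, amacrine and horizontal cell markers in RPE/choroid came from such cells was not tested either.

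Fovea and perimacula of RPE/choroid, which share flow cells, gave 0 calls among the 7 genes by edgeR, against 0.0447% of all 15674 genes, with 0.0191% higher and 0.0255% lower at the fovea. At an unadjusted p under 0.05, 3 of the 7 and 1678 of all genes were reached, and DESeq2 called 1 of the 7, CA12. CA12 was higher at the fovea by 1.02 ± 0.26 in 4 of 4 eyes with no overlap (edgeR, adjusted p = 0.206). ATP1B2 had 0.76 ± 0.32 and CA2 -0.83 ± 0.26, with edgeR adjusted p-values of 0.42 and 0.306. CA12 passed when the 2 locations were fitted alone, at 1.02 ± 0.15 (edgeR, adjusted p = 0.0252).

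Fovea and nasal location of RPE/choroid, again on shared flow cells, gave 1 call of 7, against 0.361% of all 15789 genes tested and 0.209% higher at the fovea. It was CA12, higher at the fovea by 1.56 ± 0.26, a 2.95-fold difference seen in 4 of 4 eyes (edgeR, adjusted p = 0.0241). The call was lost without eye 1, 3 or 4 (edgeR, adjusted p = 0.0893, 0.171 and 0.401) and without the covariate (edgeR, adjusted p = 0.0596), with differences of 1.40 to 1.69 in those fits. The other 6 genes lay between 0.09 and 0.69, the latter being CA2 (edgeR, adjusted p = 0.269).

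Perimacula and nasal location were the pair of retina locations that could be tested, and 2 of 7 genes were called, against 1.49% of all 15486 genes, 0.446% higher and 1.05% lower at the perimacula. The genes were proposed with the retinal comparison of fovea and periphery known, so this share is not independent of their choice. The ATP1A4 entry was lower at the perimacula, at -1.91 ± 0.24, a 3.75-fold difference in 4 of 4 eyes without overlap (edgeR, adjusted p = 0.00271). ATP1B1 was higher at the perimacula by 0.56 ± 0.12 in 4 of 4 eyes (edgeR, adjusted p = 0.0398). Its call did not hold with the eye as a block, at 0.55 ± 0.12 (edgeR, adjusted p = 0.0617), without the covariate (edgeR, adjusted p = 0.0882) or with any 1 eye left out (edgeR, adjusted p = 0.0744 to 0.181), and without eye 4 the difference was 0.37 ± 0.08. CA12 had -0.92 ± 0.37 (edgeR, adjusted p = 0.222), and the remaining 4 genes lay between -0.16 and 0.25. Between the same locations the Mueller glia markers were 2334 to 2807 CPM at the perimacula and 2972 to 3306 CPM at the nasal location, and the ganglion cell markers 2341 to 4910 CPM and 1641 to 1867 CPM.

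Retina and RPE/choroid were compared at the perimacula, where 7 of 7 genes were called, against 76.7% of all 16382 genes tested, 37.7% higher in retina and 39% higher in RPE/choroid. In retina CA2 was higher by 1.89 ± 0.36 (edgeR, adjusted p = 3.43e-05), ATP1B2 by 2.20 ± 0.24 (edgeR, adjusted p = 4.35e-09) and ATP1B1 by 0.66 ± 0.24 (edgeR, adjusted p = 0.0175). The last call was lost without eye 3 or eye 4 (edgeR, adjusted p = 0.0821 and 0.136). Higher in RPE/choroid were CA12, at -2.73 ± 0.35 (edgeR, adjusted p = 1.01e-07), CA14, at -1.79 ± 0.30 (edgeR, adjusted p = 5.22e-06), the ATP1A4 entry, at -1.76 ± 0.31 (edgeR, adjusted p = 1.43e-05), and ATP1B3, at -1.49 ± 0.19 (edgeR, adjusted p = 1.06e-07). None of the 7 genes had overlapping ranges between the layers there. The share of all genes without overlap was not counted, so this is not read as particular to these genes.

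At the nasal location 5 of 7 genes were called between the layers, against 76.2% of all genes, 37.6% higher in retina and 38.6% higher in RPE/choroid. CA2 was 10.3-fold higher in retina, at 3.37 ± 0.39 (edgeR, adjusted p = 1.25e-08), and ATP1B2 3.34-fold higher, at 1.74 ± 0.23 (edgeR, adjusted p = 2.12e-07). CA14 was 4.001-fold higher in RPE/choroid (edgeR, adjusted p = 1.08e-06), ATP1B3 2.89-fold (edgeR, adjusted p = 7.07e-08) and CA12 2.41-fold (edgeR, adjusted p = 0.00136). The ATP1A4 entry had 0.29 ± 0.30 and ATP1B1 -0.30 ± 0.24, with overlapping ranges (edgeR, adjusted p = 0.388 and 0.261).

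Described over all 4 locations, the tissue difference of CA12 and of the ATP1A4 entry changed sign. For CA12, retina minus RPE/choroid was -5.90 ± 0.41 at the fovea, 59.8-fold higher in RPE/choroid, and 1.75 ± 0.34 at the periphery, 3.36-fold higher in retina, in 4 of 4 eyes each. For the ATP1A4 entry it went from -3.83 ± 0.34 at the fovea to 2.49 ± 0.32 at the periphery. The other genes did not turn in this way between fovea and periphery. CA2 and ATP1B2 were higher in retina and ATP1B3 higher in RPE/choroid at 4 of 4 locations in the fit. CA14 stood at -2.64 ± 0.31 at the fovea and at -0.78 ± 0.29 at the periphery, where the ranges overlapped, and ATP1B1 went from 1.13 ± 0.25 to 0.02 ± 0.24.

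**Figure D4:**
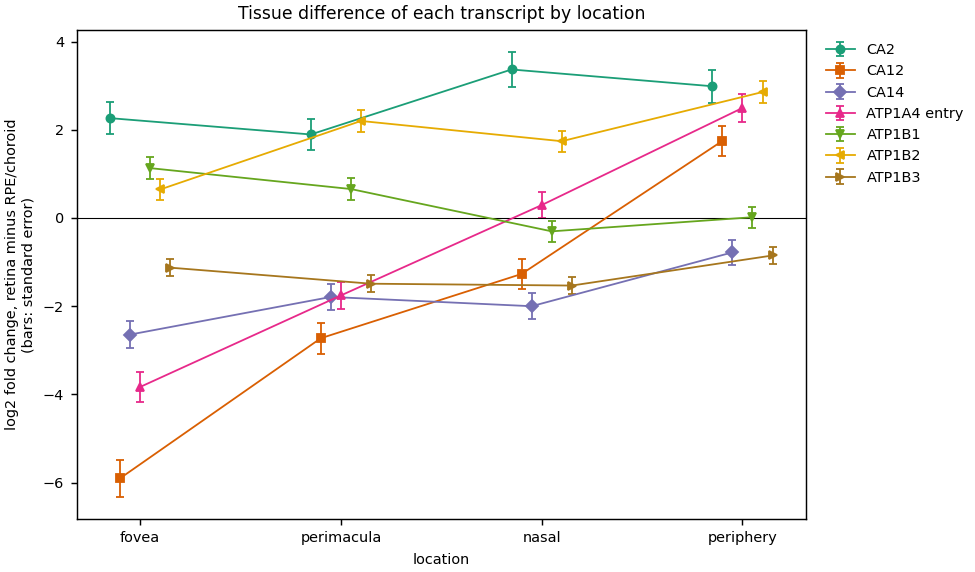
Fitted log2 fold change of retina minus RPE/choroid for each gene at the 4 locations, with bars for the SE, where points above 0 are higher in retina. CA12 lies at -5.90 at the fovea and at 1.75 at the periphery and the ATP1A4 entry at -3.83 and 2.49, while CA2 and ATP1B2 lie above 0 and ATP1B3 below 0 at all 4 locations.

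The rest of the pathways was read from lists of 12 other carbonic anhydrases, 15 other sodium pump genes and 22 acid-base transporters. Of these, 40 were in the values and 38 identifiers were tested. Between fovea and periphery of retina 29 of the 38 were called by edgeR, against 67% of all 15380 genes tested, 16 of them higher at the fovea (31% of all genes) and 13 at the periphery (36%). Between fovea and nasal retina, on shared flow cells, 26 of 38 were called, against 52.2% of all genes, 14 higher at the fovea (25.1% of all genes) and 12 at the nasal location (27.2%). Between fovea and periphery of RPE/choroid 11 of 38 were called, against 44.1%, 5 higher at the fovea (21.2% of all genes) and 6 at the periphery (22.9%).

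Among the other carbonic anhydrases, 4 were higher at the retinal fovea than at the periphery, 4 were lower and 1 was not called. CA3 was higher at the fovea by 2.23 ± 0.34 but was rare, at 0.393 and 0.087 CPM, and CA11, a relative without catalytic activity, by 1.39 ± 0.12, at 164 ± 11.98 CPM and 65.2 ± 8.09 CPM (SD, n = 4). CA6, the secreted enzyme of saliva, was higher by 1.10 ± 0.42 but was also rare, at 1.19 and 0.634 CPM, and higher in only 3 of 4 eyes. CA5B, a mitochondrial enzyme, was 15.4 CPM at the periphery and 5.003 CPM at the fovea, a difference of -1.53 ± 0.15. Against the nasal location 7 of 9 were called, with CA3 at 1.58 ± 0.45, CA6 at 1.55 ± 0.41, CA11 at 1.12 ± 0.11 and CA5A, the other mitochondrial enzyme, at -1.03 ± 0.20. In RPE/choroid 3 of 11 were called between fovea and periphery: CA10 (-2.39 ± 0.76), CA5A (-0.65 ± 0.20) and CA4 (0.59 ± 0.18), the enzyme anchored to the surface of capillaries. CA10 was low there, at 0.862 ± 0.552 CPM at the fovea and 5.02 ± 5.41 CPM at the periphery (SD, n = 4). Its peripheral values ranged from 1.51 to 13.06 CPM, against a mean of 112.7 CPM in peripheral retina. CA4 stands on 2 identifiers, of which ENSMMUG00000007917 was called and ENSMMUG00000042295 was not, so its value is uncertain.

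Of the other sodium pump genes, 7 of 10 were called between fovea and periphery of retina. The largest differences were those of genes of the NKAIN family, whose proteins bind the beta subunit ATP1B1: NKAIN2 at -3.17 ± 0.25, NKAIN1 at 2.51 ± 0.36, NKAIN3 at -2.39 ± 0.26 and NKAIN4 at -1.04 ± 0.23. All 4 had means under 4 CPM. Against the nasal location 7 of 10 were called as well, with NKAIN2 at -2.41 ± 0.22, NKAIN1 at 2.08 ± 0.39 and NKAIN4 at -1.21 ± 0.27. In RPE/choroid 2 of 9 were called, FXYD5, a regulator of the pump and of cell adhesion, higher at the fovea by 1.19 ± 0.14, and FXYD3, of the same family, at -1.38 ± 0.29.

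Of the acid-base transporters, 14 of 19 were called between fovea and periphery of retina, 9 higher at the fovea and 5 at the periphery. SLC26A7, an anion exchanger, was 1.02 ± 0.19 CPM at the fovea and 11.9 ± 5.15 CPM at the periphery (SD, n = 4), a difference of -3.43 ± 0.30. SLC4A4, a sodium bicarbonate cotransporter, was higher at the fovea by 2.23 ± 0.26 and SLC4A3, a chloride bicarbonate exchanger, by 2.02 ± 0.18. Against the nasal location 12 of 19 were called, among them SLC26A7 at -3.63 ± 0.28, SLC4A4 at 1.24 ± 0.22 and SLC4A3 at 1.22 ± 0.17.

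In RPE/choroid 6 of 18 acid-base transporters were called between fovea and periphery, and SLC26A7 was among them with the opposite sign, higher at the fovea by 2.24 ± 0.64, at 41.2 ± 14.1 CPM against 9.61 ± 8.40 CPM. SLC4A10 was higher at the fovea by 1.93 ± 0.53. SLC9A3 was called higher at the periphery, at 8.67 ± 11.9 CPM against 0.024 ± 0.018 CPM, and since its foveal level is under the limit of 3 counts no fold is given. CA12 and SLC26A7 were thus both higher at the fovea in RPE/choroid and both higher at the periphery in retina, and the difference between the layers was not tested for either.

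**Figure D5:**
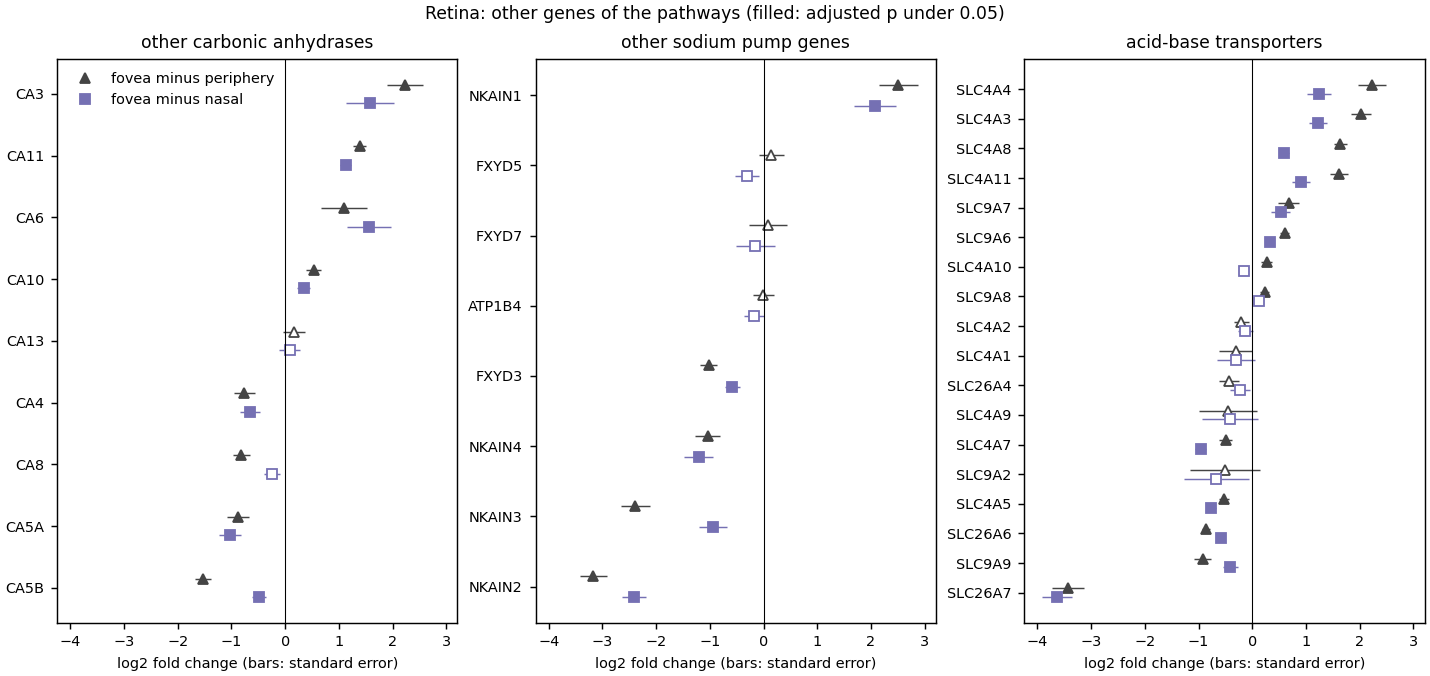
Fitted log2 fold change in retina of fovea minus periphery (triangles) and fovea minus nasal location (squares) for those carbonic anhydrases, sodium pump genes and acid-base transporters of the lists that are reported here, with bars for the SE and filled symbols for an adjusted p under 0.05. NKAIN1 lies furthest to the right at 2.51, and SLC26A7 at -3.63 and NKAIN2 at -3.17 lie furthest to the left.

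For the other genes of the set, the most similar patterns in retina were those of TMEM130 (r = 0.956), NSG2 (0.925) and NRSN2 (0.922) for CA2, PRSS35 (0.980), TES (0.979) and PSMC3IP (0.979) for CA12, GSTM2 (0.970), GLOD4 (0.967) and HEMK1 (0.967) for CA14 and FKBP4 (0.901), S100PBP (0.897) and POLR2B (0.891) for ATP1B3. In RPE/choroid they were those of CITED1 (0.950), SPP1 (0.930) and GRIK3 (0.913) for CA2, ACKR3 (0.892), ARHGEF7 (0.862) and CNTN4 (0.859) for the ATP1A4 entry, SUPT6H (0.986), POM121C (0.979) and KIAA1217 (0.978) for ATP1B2 and LRCH3 (0.927), RSU1 (0.923) and SNX19 (0.916) for ATP1B3. SPP1 was thus among the 3 most similar genes of the ATP1A4 entry in retina and of CA2 in RPE/choroid. All coefficients are over 16 libraries of a tissue, which share eyes, locations and flow cells, and describe these libraries only. Between the genes themselves the closest pair in RPE/choroid was CA12 with ATP1B2, at r = 0.855, and the same pair stood at 0.271 in retina.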

How the data were processed

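Per the labels and the methods of the study, reads were quantified lane by lane with Salmon 0.13 on Mmul_8.0.1 and collected per gene with tximport, and the authors deposited 1 table per lane with a column headed TPM. The deposited values were read as estimated counts, length-scaled by tximport, since the sums of lanes ranged from 7932259 to 39439054. The 136 lanes were summed here into 32 libraries of 42448891 to 78574034 counts and rounded, and 10 repeated identifiers were dropped. Fovea, perimacula and nasal libraries had 5 lanes on 2 flow cells, periphery libraries 2 lanes on another. Replicates of a group differed by 4.47 to 81.8 times the variance of counting alone, so no pair looked like a repeated library.

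CPM were divided by library totals, and TMM factors, used in the tests, ranged from 0.896 to 1.089. Tests were edgeR 4.0.16 quasi-likelihood fits (R 4.3.3, limma 3.58.1) with TMM, filterByExpr at a minimum count of 10 and the monkey as covariate, with Benjamini-Hochberg adjustment over all genes at 0.05, and all 7 genes passed the filter. Each tissue had a fit of fovea, perimacula and periphery, comparisons with the nasal location used all 4 locations, and tissues were compared in a fit of all 32 libraries. The study used DESeq2, which is an alternative here (1.42.0), beside RLE normalization, other count filters, the eye as a replicate block, no covariate, single flow cells, fewer groups and leaving out each eye. Same-numbered samples come from the same eye, so the numbers pair the samples. Deviations from the location means correlated within eyes by 0.576 in retina and 0.40 in RPE/choroid on average, and by 0.017 and -0.027 after the mean of each monkey was removed. Scripts were tested on simulated data.

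Genes, lists and tests were chosen with earlier results of these data known. Named genes are the 7 members, up to 4 called genes with the largest absolute log2 fold change per pathway list and comparison, and the 3 genes with the highest Pearson r of log2 CPM (prior count 2) over the 16 libraries of a tissue, among genes averaging 3 log2 CPM or more. Some of these are not reported here. Symbols are those of the files. Of 14579 identifiers in the reference table, 92.9% carry the same symbol there. Sequences and coordinates were not used here. Sums, summaries and figures were made in Python 3.11.15 (pandas 2.3.3, numpy 2.4.6, matplotlib 3.10.9, scipy 1.17.1).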

Additional observations from a re-analysis of the deposited data

Results flagged for a closer look

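In 56 groups of 4 eyes, 1 eye stood far from the other 3 in 2 cases, and such a gap arises by chance in about 1 of 20 groups. The ATP1A4 entry was 323.7 CPM in the peripheral retina of eye 1, against 515.8 to 553.2 CPM in the other 3 eyes. ATP1B1 was 540.6 CPM in the perimacular retina of eye 4, against 329.2 to 355.5 CPM in the others.

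For 6 pairs of gene and comparison, every eye moved one way in retina and every eye the opposite way in RPE/choroid. The difference between the layers was not tested in any of the 6 pairs. The mean log2 ratio of fovea to periphery was -4.68 in retina and 2.86 in RPE/choroid for CA12, a difference of -7.54. Against the nasal location it differed by -4.75 and against the perimacula by -3.02. For ATP1B2 the difference was -2.18 against the periphery and -1.48 against the perimacula. For CA2 it was -1.23 against the nasal location.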

How the results depend on the processing

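Of 553 values of the 7 genes in tested comparisons under alternatives, 511 kept their direction and their side of the threshold, 14 lost the call, 18 gained it and 10 changed sign, the last with no call on either side. Those 10 were, for perimacula minus nasal retina, CA2 without replicate 1 (0.045) or 4 (0.019, range with 1 eye left out -0.111 to 0.045) and ATP1B3 on flow cell HLKMN alone (-0.058), for fovea minus periphery of RPE/choroid, CA2 without replicate 3 (-0.224) or 4 (-0.021, range -0.224 to 0.428), for fovea minus perimacula, ATP1B3 without replicate 1 (0.189, range -0.232 to 0.189) or without its perimacular library (0.094), and for fovea minus nasal, ATP1B1 without replicate 3 (-0.005) or 4 (-0.024, range -0.024 to 0.244) and ATP1B3 without replicate 4 (-0.03, range -0.03 to 0.167). None of the 581 described values changed sign, and 2 moved by more than the spread between replicates: ATP1B2 between fovea and nasal retina without replicate 1 (-0.777) and ATP1B3 between the layers at the fovea on flow cell HLKJ7 alone (-0.722).

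Counts of the 7 genes called moved as follows, and the cause was not tested. In RPE/choroid, fovea against periphery gave 5 with DESeq2 in place of 3. Fovea against perimacula gave 1 with DESeq2 and 3 with the 2 groups alone or with flow cell HLKJ7 or HLKMN alone, in place of 0. Single flow cells also leave the periphery libraries out of the fit. Fovea against nasal gave 0 without the covariate, 2 with the 2 groups alone and 0 to 1 with an eye left out, in place of 1. In retina, perimacula against nasal gave 1 with the eye as a replicate block, without the covariate, with the 2 groups alone and with any eye left out (1 to 1), in place of 2. The block also added the call of ATP1B1 between fovea and periphery of RPE/choroid and changed no other call of the 7 genes. The 11 pathway genes called in RPE/choroid became 6 to 10 with an eye left out.

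Counts over all genes moved by more than 1.5 times in 3 comparisons. Fovea against perimacula of RPE/choroid gave 7, with DESeq2 314, with the block or no covariate 1, with an eye left out 0 to 5, with the 2 groups alone 357, on single flow cells 261 and 322, and 0 without the perimacular library of eye 1. Fovea against nasal gave 57, with DESeq2 490, the block 30, no covariate 4, an eye left out 0 to 10, the 2 groups alone 346 and single flow cells 445 and 379. Perimacula against nasal retina gave 231, with DESeq2 785, no covariate 29, an eye left out 14 to 66 and flow cell HLKMN 505.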
